A study of Saccharomyces cerevisiae with 13 samples.

Results

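The genes described here encode enzymes of amino acid biosynthesis in the budding yeast Saccharomyces cerevisiae, together with GCN4, the gene of their shared transcriptional activator. The 42 genes were taken by name from the arginine, histidine, lysine, branched-chain, aromatic, aspartate and serine pathways, each represented by its probe set with the highest mean over 13 arrays. A named probe set was available for 41 of the 42, out of 5449 genes in all. ARG5,6, which encodes the acetylglutamate kinase and reductase of arginine synthesis, had none under that name and is not analysed here.

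All arrays came from strain BY4741, a laboratory haploid, grown to saturation at 30°C in YPGE, a medium whose carbon sources are glycerol and ethanol. There were 7 groups: time zero (2 arrays), 2% isopropanol for 1 h (2 arrays), 2 h (1 array, the RNA of a second sample having been poor) and 4 h (2 arrays), and 0.05 mM TFM for 1, 2 and 4 h (2 arrays each). TFM, 3-trifluoromethyl-4-nitrophenol, is a lampricide and a known uncoupler of oxidative phosphorylation. The time zero samples also carry the isopropanol label, but by the design they precede treatment and are treated here as untreated cells. No isopropanol level is given for the TFM arrays, so a difference in isopropanol between the arms cannot be told apart from TFM. The RNA samples are called independent, but separate cultures are not stated, so each p measures only the spread between these samples, which may be technical. In RNA from a whole culture, a change in fewer cells and a smaller change in every cell cannot be told apart.

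Yeast can make every protein amino acid, and most of the enzymes respond to general amino acid control. In that system the kinase Gcn2 senses uncharged tRNA and phosphorylates the translation factor eIF2, which raises translation of GCN4 mRNA, and the Gcn4 protein then activates biosynthetic genes across pathways. Gcn4 protein is thus set to a large extent at translation, which arrays of mRNA do not measure. Several pathways run partly in mitochondria, among them ornithine formation and most steps of branched-chain synthesis, and pathway-specific activators such as Lys14 and Leu3 add control by intermediates of their own pathways. BY4741 carries mutations in HIS3 and LEU2, so it cannot complete histidine or leucine synthesis and takes both amino acids from the medium.

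Values are log2 RMA expression values as deposited. Time zero means of the members ran from 9.48 to 14.61, all above the brightest of the 17 tag control probe sets, which averaged 5.94, and no member had several probe sets. Probe sets differ in brightness for equal RNA, so levels were not compared between genes. The probe sets of LEU2 (5.20 to 6.15), MET17 (5.28 to 5.80) and URA3 (4.76 to 5.04), genes that the strain is known to lack, stayed near the controls on all 13 arrays. HIS3, known to be only partly deleted there, read 11.27 to 11.65. Pearson r between replicate arrays, taken across genes, was 0.992 to 0.998. RNA integrity was read from the log2 signal at the 3 prime end minus that at the 5 prime end, averaged over 7 control transcripts. At 4 h this difference was higher with TFM (1.63 and 1.40) than with isopropanol (1.15 and 1.13). At 2 h it was 1.18 and 1.49 with TFM and 1.14 with isopropanol, and at 1 h 1.32 and 1.39 with TFM against 1.42 and 1.34 with isopropanol. It moved with TFM at 4 h, and a model with this difference as a covariate was fitted beside the main one.

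In isopropanol without TFM, 0 of the 41 members passed the threshold of adjusted p 0.05 in limma against time zero at 1, 2 or 4 h (0% of all genes at each time). Without adjustment, 4, 0 and 1 members had a p under 0.05, as did 367, 111 and 67 of all 5449 genes. The median log2 changes of the members were -0.045, -0.019 and 0.047, and single members ranged from -0.43 for ILV5 at 1 h to 0.30 for LYS21 at 2 h. The lack of calls does not show that no member changed.

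With TFM the members followed different courses. At 1 h 1 of 41 members was lower than in isopropanol and 0 were higher, beside 0.422% of all genes lower and 0.807% higher (1.23% either way). At 2 h 9 members were lower and 0 higher, 22.0% of the members against 5.84% of all genes lower and 8.30% higher (14.1% either way). At 4 h 18 members were lower and 11 higher, that is 43.9% lower beside 34.0% of all genes and 26.8% higher beside 30.9%. The total of 29 members, 70.7%, lay near the 64.9% of all genes called at that time.

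Against isopropanol of the same time, the shift to lower values was largest at 2 h, where the reference was 1 array. The median member stood at -0.074, -0.21 and -0.13 on the log2 scale at 1, 2 and 4 h, while the median of all genes stood at 0.0060, 0.011 and -0.012. A log2 change below 0 was seen in 31, 34 and 26 of the 41 members, and in 48.2, 48.1 and 50.7% of all genes. The range of the members widened from -0.62 to 0.27 at 1 h, through -0.96 to 0.31 at 2 h, to -2.01 to 1.37 at 4 h. By pathway the median 4 h change was 0.33 for arginine (5 genes) and 0.14 for lysine (7 genes, from -1.07 to 0.92). It was -0.27 for histidine (4 genes), -0.38 for the aromatic genes (8), -0.42 for the branched-chain genes (10) and -0.52 for the aspartate family (4). The serine value, 0.36, is only the midpoint of 2 genes that went apart, SER3 (0.85) and SER1 (-0.13, not called). Of the 9 members lower at 2 h, 5 were lower at 4 h, 0 were higher and 4 did not pass the threshold. Set against the time zero mean, the median member stood at -0.16 and -0.13 on the TFM 1 h arrays. It stood at -0.16 and -0.24 on those of 2 h, and at -0.078 and -0.12 on those of 4 h. The isopropanol arrays gave -0.065 and -0.041 at 1 h, -0.019 at 2 h, and 0.034 and 0.084 at 4 h. By this measure only TFM 2 h replicate 2 lay below both TFM 1 h arrays.

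**Figure D1:**
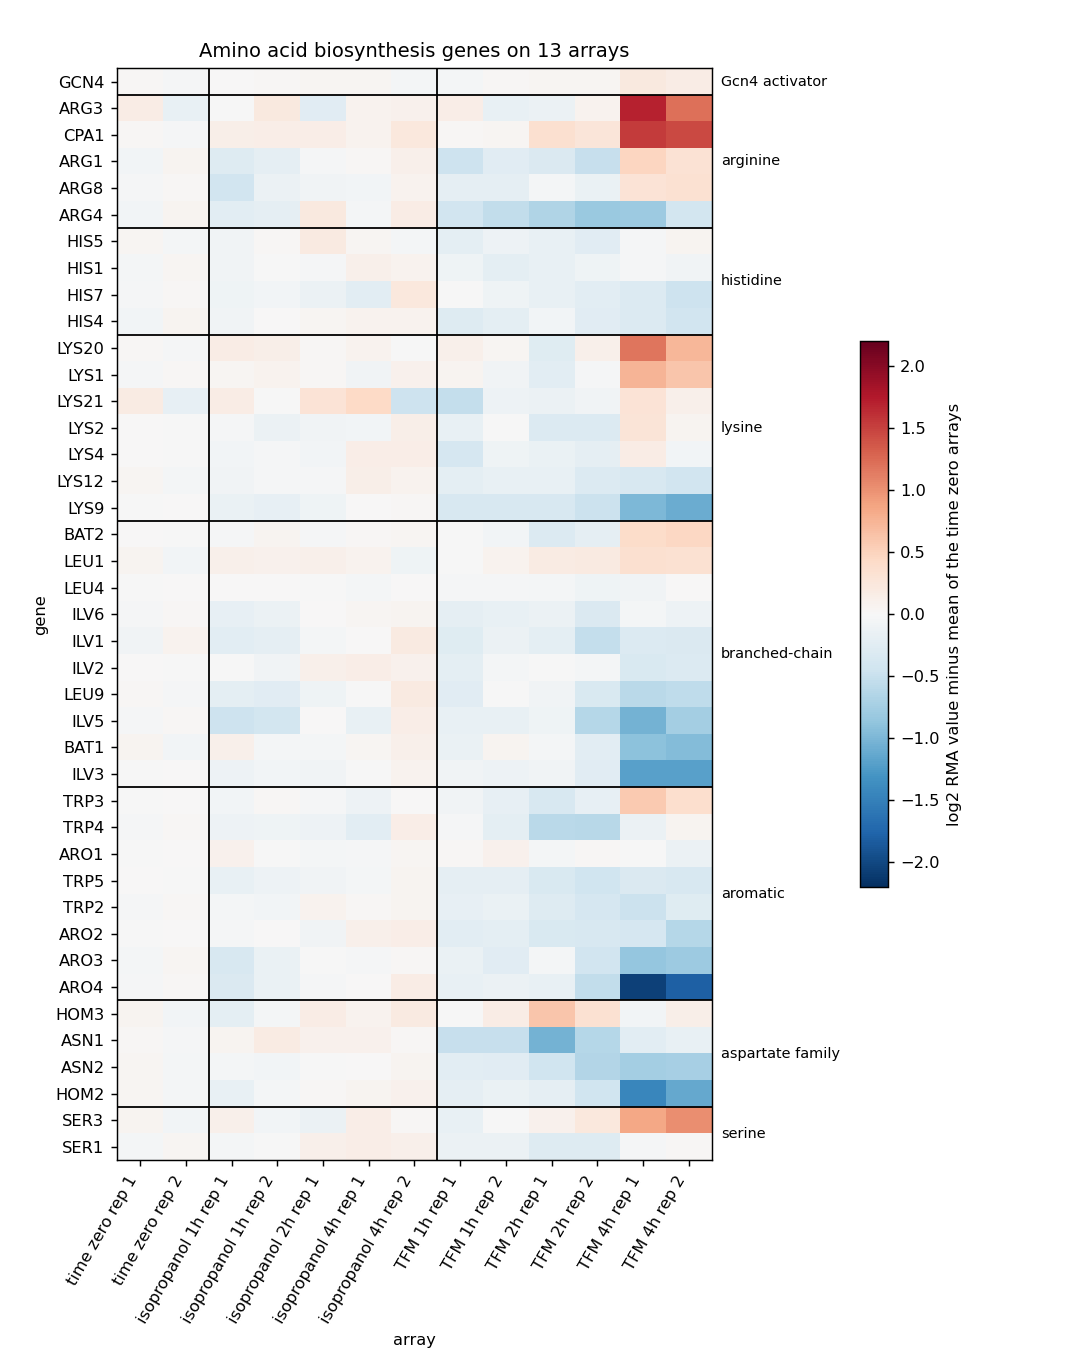
Log2 RMA value of each of the 41 genes (vertical axis, grouped by pathway) on each of the 13 arrays (horizontal axis), minus the gene's mean on both time zero arrays. Colours run from blue (lower) to red (higher), and most of the strong colours lie in the TFM 4 h columns, with ARG3 and CPA1 the reddest and ARO4 the bluest.

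**Figure D2:**
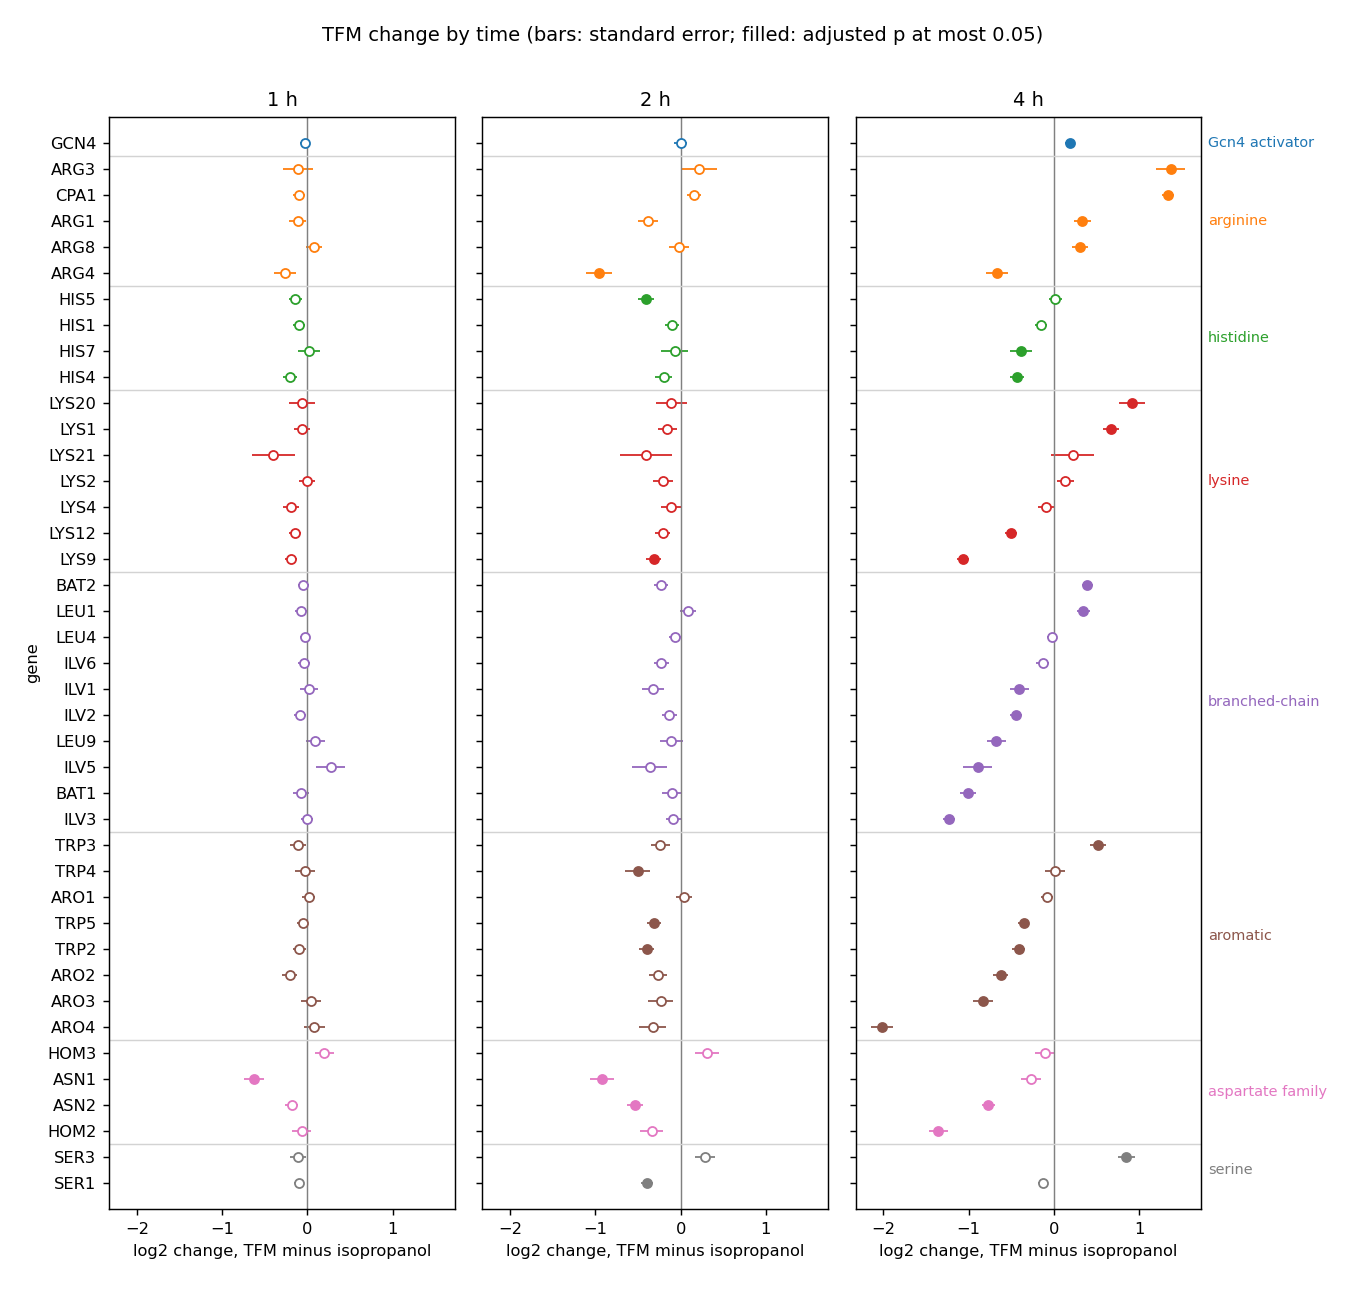
Log2 change, TFM minus isopropanol, of each gene at 1, 2 and 4 h (horizontal axis, standard error as bars), coloured by pathway. Filled points passed adjusted p 0.05 in limma: 1 point at 1 h and 9 at 2 h, all to the left of 0, and 18 left and 11 right of it at 4 h.

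Below, values are listed with replicate 1 first, and the 5 isopropanol values stand in the order 1 h, 1 h, 2 h, 4 h, 4 h. Each change is a log2 difference between TFM and isopropanol at the same time with its standard error. GCN4 read 14.51 and 14.48 at time zero, 14.51, 14.51, 14.53, 14.53 and 14.45 in isopropanol, and 14.45 and 14.51, then 14.53 and 14.54, then 14.71 and 14.65 after 1, 2 and 4 h of TFM. The groups overlapped at 1 h, the lone isopropanol array lay between both TFM arrays at 2 h, and both TFM 4 h arrays lay above both isopropanol 4 h arrays. GCN4 thus rose slightly at 4 h, by 0.19 ± 0.061 (adjusted p = 0.0221), with intervals of -0.17 to 0.11 at 1 h and -0.17 to 0.17 at 2 h. The call was lost without isopropanol 4 h replicate 2 (0.15, adjusted p = 0.117) or TFM 4 h replicate 1 (0.16, adjusted p = 0.0917), with the isopropanol and time zero arrays blocked by replicate number (0.17, adjusted p = 0.0533) and with the integrity covariate, at 0.14 (adjusted p = 0.272). Cyclic loess gave 0.30. The probe set reads close to the highest value on any array, 15.2.

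In arginine synthesis 4 of the 5 measured members rose at 4 h and 1 fell, beside 30.9% of all genes higher and 34.0% lower. For CPA1 the arrays gave 12.60 and 12.56 at time zero and 12.71, 12.72, 12.73, 12.67 and 12.81 in isopropanol, against 12.61 and 12.63 at 1 h of TFM, 12.92 and 12.85 at 2 h, then 14.11 and 14.04 at 4 h. CPA1 encodes the small subunit of the carbamoyl phosphate synthetase that serves arginine. Both TFM 4 h arrays stood over 1 unit above every other array, and the gene rose by 1.34 ± 0.069, 2.53-fold (adjusted p = 8.53e-07). ARG3 read 9.65 and 9.32 at time zero, 9.47, 9.70, 9.23, 9.56 and 9.57 in isopropanol, and 9.62 and 9.33, then 9.35 and 9.56, then 11.17 and 10.70 after 1, 2 and 4 h of TFM. ARG3, the ornithine carbamoyltransferase, uses the product of that synthetase. Of the 13 arrays, both TFM 4 h arrays were the highest, at a change of 1.37 ± 0.17 or 2.59-fold (adjusted p = 8.81e-05), and its change at 2 h, 0.22 ± 0.21, did not pass.

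ARG4, the argininosuccinate lyase of the last step, went the other way. The ARG4 signal was 12.03 and 12.15 before treatment, 11.85, 11.90, 12.31, 12.05 and 12.26 with isopropanol, and 11.66 and 11.56, 11.43 and 11.28, and 11.29 and 11.69 at 1, 2 and 4 h with TFM. The TFM arrays lay below the isopropanol arrays of the same time at 1, 2 and 4 h without overlap. ARG4 fell at 2 h (-0.96 ± 0.16, adjusted p = 0.00609) and at 4 h (-0.67 ± 0.13, adjusted p = 0.00116), while the change at 1 h, -0.27 ± 0.13, missed the threshold. With the integrity covariate the 4 h change was -0.32 (adjusted p = 0.136) and the 2 h change -0.77 (adjusted p = 0.0126). ARG1, the argininosuccinate synthase that makes the substrate of Arg4, rose by 0.33 ± 0.098 (adjusted p = 0.0134) at 4 h, and ARG8, the mitochondrial acetylornithine aminotransferase, by 0.31 ± 0.097 (adjusted p = 0.0192). These were weaker calls. ARG1 lost its call without isopropanol 4 h replicate 1 (0.29) or TFM 4 h replicate 1 (0.26) and with the covariate, at 0.37 (adjusted p = 0.096). ARG8 lost its call without isopropanol 4 h replicate 1 (0.24), TFM 4 h replicate 1 (0.32) or TFM 4 h replicate 2 (0.29).

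The 4 histidine genes moved little, with 1 that fell at 2 h, 2 that fell at 4 h and 0 that rose. Of all genes 5.84% were lower at 2 h and 34.0% at 4 h, while 8.30% and 30.9% were higher. HIS4 read 11.77 and 11.88 at time zero, 11.75, 11.83, 11.88, 11.90 and 11.90 in isopropanol, and 11.54 and 11.62, then 11.77 and 11.58, then 11.53 and 11.41 after 1, 2 and 4 h of TFM. HIS4 encodes an enzyme of several histidine steps and is a classic target of Gcn4. Its TFM arrays lay below the isopropanol arrays at each time, with a called change only at 4 h (-0.43 ± 0.083, adjusted p = 0.00124), which was -0.36 (adjusted p = 0.0587) with the covariate. For HIS7 the arrays gave 9.61 and 9.65 at time zero and 9.54, 9.56, 9.50, 9.39 and 9.86 in isopropanol, against 9.62 and 9.53 at 1 h of TFM, 9.47 and 9.40 at 2 h, then 9.33 and 9.16 at 4 h. HIS7, the imidazole glycerol phosphate synthase, fell at 4 h (-0.38 ± 0.13, adjusted p = 0.0256), its TFM 4 h arrays being the lowest of the 13. That value rests on the isopropanol 4 h arrays, which differ among themselves: it was -0.62 without replicate 1 and -0.15 (adjusted p = 0.2) without replicate 2. It was also lost without TFM 4 h replicate 2 (-0.30), with the isopropanol and time zero arrays blocked by number (-0.29, adjusted p = 0.0642) and with the covariate, at -0.38 (adjusted p = 0.195). The HIS5 signal was 11.50 and 11.41 before treatment, 11.38, 11.49, 11.65, 11.50 and 11.41 with isopropanol, and 11.23 and 11.35, 11.29 and 11.21, and 11.42 and 11.52 at 1, 2 and 4 h with TFM. HIS5, the histidinol phosphate aminotransferase, fell at 2 h by 0.41 ± 0.094 (adjusted p = 0.0225) against a lone isopropanol array that was the highest of all 13, and stood at 0.018 ± 0.077 at 4 h, not passing. Against all 5 isopropanol arrays the 2 h change was -0.24, and against time zero -0.21 (adjusted p = 0.0797). With the covariate the 2 h change was -0.35 (adjusted p = 0.0658). HIS1, the first enzyme of the pathway, had a 4 h change of -0.15 ± 0.070 (adjusted p = 0.0784).

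Lysine synthesis split at 4 h, with 2 members that rose, 2 that fell and 3 that did not pass. The shares of all genes were 30.9% higher and 34.0% lower. LYS20 read 12.86 and 12.79 at time zero, 12.99, 12.96, 12.86, 12.91 and 12.82 in isopropanol, and 12.94 and 12.88, then 12.55 and 12.95, then 14.01 and 13.56 after 1, 2 and 4 h of TFM. LYS20 encodes a homocitrate synthase, the entry enzyme of the pathway. It rose by 0.92 ± 0.15 (adjusted p = 0.000449) at 4 h, both TFM arrays lying above all others, and with the covariate the change was 0.40 (adjusted p = 0.0391). For LYS1 the arrays gave 11.37 and 11.41 at time zero and 11.44, 11.47, 11.42, 11.32 and 11.49 in isopropanol, against 11.45 and 11.32 at 1 h of TFM, 11.16 and 11.37 at 2 h, then 12.15 and 12.01 at 4 h. LYS1, which forms lysine from saccharopine in the last step, rose by 0.68 ± 0.094 (adjusted p = 0.000165), again with both TFM 4 h arrays on top.

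The LYS9 signal was 12.85 and 12.88 before treatment, 12.72, 12.68, 12.77, 12.88 and 12.90 with isopropanol, and 12.51 and 12.51, 12.52 and 12.39, and 11.88 and 11.77 at 1, 2 and 4 h with TFM. LYS9 encodes the saccharopine dehydrogenase that acts just before Lys1. Its TFM arrays lay below those in isopropanol at every time, and it was lower at 2 h (-0.32 ± 0.083, adjusted p = 0.0347) and at 4 h (-1.07 ± 0.068, adjusted p = 1.85e-06). The 2 h call was lost with the covariate, at -0.30 (adjusted p = 0.0823), and with the replicate block (-0.30, adjusted p = 0.0687), while that at 4 h was kept in every setting tried. Leaving out any 1 of the arrays of time zero or 1 h also lost the 2 h call, with its value as it was. LYS12 read 13.35 and 13.25 at time zero, 13.23, 13.27, 13.27, 13.43 and 13.38 in isopropanol, and 13.08 and 13.13, then 13.13 and 12.99, then 12.94 and 12.87 after 1, 2 and 4 h of TFM. LYS12, the homoisocitrate dehydrogenase, fell by 0.50 ± 0.071 (adjusted p = 0.000187) at 4 h with no overlap between the groups. The homoaconitase gene LYS4 (-0.091 ± 0.096) and the aminoadipate reductase gene LYS2 (0.14 ± 0.096) did not pass at 4 h. For LYS21 the arrays gave 11.40 and 11.05 at time zero and 11.40, 11.22, 11.53, 11.65 and 10.77 in isopropanol, against 10.70 and 11.11 at 1 h of TFM, 11.10 and 11.15 at 2 h, then 11.53 and 11.33 at 4 h. LYS21, the second homocitrate synthase, had isopropanol 4 h arrays that differ by more than its TFM change of 0.22 ± 0.25, so with an interval of -0.34 to 0.78 no direction could be read.

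Branched-chain synthesis had the most members, and at 4 h 6 of 10 fell, 2 rose and 2 did not pass, after 0 calls at 1 and 2 h. Among all genes 34.0% were lower and 30.9% higher at 4 h, after 1.23% and 14.1% called at 1 and 2 h. For ILV3 the arrays gave 14.00 and 14.02 at time zero and 13.89, 13.94, 13.94, 14.00 and 14.09 in isopropanol, against 13.93 and 13.90 at 1 h of TFM, 13.93 and 13.76 at 2 h, then 12.81 and 12.82 at 4 h. ILV3, the dihydroxyacid dehydratase shared by isoleucine, valine and leucine synthesis, had no call through 2 h and fell by 1.23 ± 0.071, 2.35-fold, at 4 h (adjusted p = 1.17e-06), when both TFM arrays lay below the other 11. BAT1 read 12.63 and 12.52 at time zero, 12.68, 12.53, 12.54, 12.63 and 12.68 in isopropanol, and 12.43 and 12.63, then 12.53 and 12.34, then 11.67 and 11.63 after 1, 2 and 4 h of TFM. BAT1, the mitochondrial branched-chain aminotransferase, fell by 1.01 ± 0.096 (adjusted p = 1.45e-05), both TFM 4 h arrays lying below the other 11 without overlap.

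The BAT2 signal was 13.90 and 13.88 before treatment, 13.86, 13.95, 13.87, 13.91 and 13.94 with isopropanol, and 13.89 and 13.82, 13.60 and 13.69, and 14.30 and 14.34 at 1, 2 and 4 h with TFM. BAT2 is the cytosolic counterpart of BAT1, and its direction at 4 h was opposite: it rose by 0.40 ± 0.066 (adjusted p = 0.000498), with both TFM 4 h arrays above all others, after a change of -0.23 ± 0.080 at 2 h that did not pass. LEU1 read 14.06 and 13.93 at time zero, 14.10, 14.09, 14.10, 14.08 and 13.91 in isopropanol, and 13.98 and 14.07, then 14.18 and 14.19, then 14.35 and 14.33 after 1, 2 and 4 h of TFM. LEU1, the isopropylmalate isomerase of leucine synthesis, was highest on the TFM 4 h arrays and rose by 0.34 ± 0.076 (adjusted p = 0.00294), and with the covariate its change was 0.31 (adjusted p = 0.0756).

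Among the other branched-chain genes, ILV5, the acetohydroxyacid reductoisomerase, changed by -0.89 ± 0.17 (adjusted p = 0.00107) at 4 h, and this value moved most with the integrity covariate, to -0.32 (adjusted p = 0.127). ILV2, the catalytic acetolactate synthase, changed by -0.44 ± 0.070 (adjusted p = 0.000385), while its regulatory subunit ILV6 stood at -0.13 ± 0.072 and did not pass. ILV1, the threonine deaminase of isoleucine synthesis, changed by -0.40 ± 0.11 (adjusted p = 0.00831), a call lost without isopropanol 4 h replicate 2 (-0.31), against all 5 isopropanol arrays (-0.25) and with the covariate, at -0.21 (adjusted p = 0.337). For LEU9 the arrays gave 11.43 and 11.36 at time zero and 11.19, 11.15, 11.30, 11.38 and 11.60 in isopropanol, against 11.14 and 11.38 at 1 h of TFM, 11.31 and 11.06 at 2 h, then 10.80 and 10.84 at 4 h. LEU9, an isopropylmalate synthase, fell by 0.67 ± 0.11 (adjusted p = 0.000491), the TFM 4 h arrays being the lowest of all. LEU4 read 14.60 and 14.63 at time zero, 14.62, 14.62, 14.60, 14.57 and 14.63 in isopropanol, and 14.59 and 14.60, then 14.56 and 14.52, then 14.54 and 14.62 after 1, 2 and 4 h of TFM. LEU4, the paralog of LEU9, stayed within 14.52 to 14.63 on all arrays, and its change of -0.023 ± 0.060 at 4 h had an interval of -0.16 to 0.11 at a signal close to the top of the scale.

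In the aromatic pathways 3 of 8 members were lower at 2 h, and at 4 h 5 were lower and 1 higher. Of all genes 5.84% were lower at 2 h, and at 4 h 34.0% were lower and 30.9% higher. ARO4 read 13.42 and 13.46 at time zero, 13.12, 13.29, 13.42, 13.45 and 13.60 in isopropanol, and 13.27 and 13.30, then 13.28 and 12.90, then 11.39 and 11.63 after 1, 2 and 4 h of TFM. ARO4, a DAHP synthase that starts the shikimate pathway, had the largest 4 h change of the 41 members in either direction, and both TFM 4 h arrays lay over 1 unit below all others. It fell by 2.01 ± 0.13, 4.04-fold (adjusted p = 1.76e-06), after -0.33 ± 0.16 at 2 h, not passing, and with the covariate the 4 h change was -1.58 (adjusted p = 6.64e-05). For ARO3 the arrays gave 13.51 and 13.59 at time zero and 13.19, 13.41, 13.55, 13.52 and 13.58 in isopropanol, against 13.40 and 13.29 at 1 h of TFM, 13.50 and 13.12 at 2 h, then 12.69 and 12.75 at 4 h. Its paralog ARO3 was also lowest on the TFM 4 h arrays and fell by 0.83 ± 0.12 (adjusted p = 0.000209), which was -0.46 (adjusted p = 0.021) with the covariate. The ARO2 signal was 12.32 and 12.33 before treatment, 12.29, 12.34, 12.25, 12.44 and 12.47 with isopropanol, and 12.10 and 12.11, 11.99 and 11.97, and 11.96 and 11.70 at 1, 2 and 4 h with TFM. ARO2, the chorismate synthase at the end of the shared trunk, fell by 0.62 ± 0.084 (adjusted p = 0.000126) at 4 h, its TFM arrays lying below the isopropanol arrays of the same time throughout. ARO1, which encodes the multifunctional enzyme of the steps between, stood at -0.082 ± 0.073 and did not pass.

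TRP3 read 10.80 and 10.81 at time zero, 10.75, 10.83, 10.78, 10.70 and 10.82 in isopropanol, and 10.73 and 10.63, then 10.45 and 10.62, then 11.39 and 11.17 after 1, 2 and 4 h of TFM. TRP3, which carries an anthranilate synthase subunit and the indole glycerol phosphate synthase, was the aromatic member that rose at 4 h, its TFM 4 h arrays being the highest of all, by 0.52 ± 0.093 (adjusted p = 0.000855), or 0.31 (adjusted p = 0.0838) with the covariate. For TRP4 the arrays gave 10.86 and 10.91 at time zero and 10.78, 10.80, 10.78, 10.65 and 11.03 in isopropanol, against 10.85 and 10.67 at 1 h of TFM, 10.29 and 10.27 at 2 h, then 10.76 and 10.95 at 4 h. TRP4, the anthranilate phosphoribosyltransferase, was lowest on the TFM 2 h arrays, where its change of -0.50 ± 0.15 lay at the threshold (adjusted p = 0.0497), and it stood at 0.014 ± 0.12 at 4 h. That call was lost with the covariate, at -0.42 (adjusted p = 0.143), and with the replicate block (-0.54, adjusted p = 0.0604). It was also lost without TFM 2 h replicate 1 (-0.51) or replicate 2 (-0.49). Leaving out any 1 of the arrays of time zero or 1 h lost it too, with its value as it was. TRP2, the other anthranilate synthase subunit, and TRP5, the tryptophan synthase, were lower at 2 h (-0.40 ± 0.092 and -0.31 ± 0.081) and at 4 h (-0.41 ± 0.075 and -0.36 ± 0.066). With the covariate none of these calls was kept: TRP2 stood at -0.32 (adjusted p = 0.0618) at 2 h and -0.26 (adjusted p = 0.0797) at 4 h, and TRP5 at -0.27 (adjusted p = 0.0879) and -0.28 (adjusted p = 0.0556). The 2 h call of TRP5 was also lost with the replicate block (adjusted p = 0.0648). Leaving out any 1 of the arrays of time zero or 1 h lost it as well, with its value as it was.

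In the aspartate family 1 of 4 members was lower at 1 h, 2 were at 2 h and 2 at 4 h, with 0 higher. Of all genes 0.422, 5.84 and 34.0% were lower at 1, 2 and 4 h, and 0.807, 8.30 and 30.9% higher. ASN1 read 13.13 and 13.06 at time zero, 13.15, 13.27, 13.19, 13.19 and 13.13 in isopropanol, and 12.58 and 12.59, then 12.06 and 12.47, then 12.86 and 12.93 after 1, 2 and 4 h of TFM. ASN1, an asparagine synthetase, was the only member to pass at 1 h (-0.62 ± 0.12, adjusted p = 0.0455), was lower again at 2 h (-0.92 ± 0.14, adjusted p = 0.00506), and at 4 h stood at -0.27 ± 0.12 (adjusted p = 0.0662), not passing. The TFM arrays lay below every isopropanol array at all times. The 1 h call was lost on leaving out any 1 of the 4 arrays of 1 h, with values from -0.68 to -0.57, or any 1 of the time zero and TFM 4 h arrays, which leave its value as it was. It was also lost against time zero (-0.51, adjusted p = 0.0582) and with the replicate block (adjusted p = 0.0726). With the covariate the 4 h change was -0.51 (adjusted p = 0.0375). For ASN2 the arrays gave 13.78 and 13.72 at time zero and 13.70, 13.68, 13.74, 13.75 and 13.81 in isopropanol, against 13.51 and 13.50 at 1 h of TFM, 13.31 and 13.11 at 2 h, then 12.9998 and 13.03 at 4 h. ASN2, the paralogous synthetase, moved in 1 direction, from -0.18 ± 0.075 at 1 h, not passing, to -0.53 ± 0.091 at 2 h (adjusted p = 0.00712) and -0.77 ± 0.075 at 4 h (adjusted p = 1.7e-05), and its TFM arrays lay below those in isopropanol at each time.

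The HOM2 signal was 13.98 and 13.88 before treatment, 13.76, 13.89, 13.95, 13.99 and 14.02 with isopropanol, and 13.73 and 13.78, 13.73 and 13.49, and 12.50 and 12.80 at 1, 2 and 4 h with TFM. HOM2, the aspartate semialdehyde dehydrogenase on the way to threonine and methionine, fell at 4 h by 1.36 ± 0.11, 2.57-fold (adjusted p = 6.22e-06), the largest fall after that of ARO4 among the members, with both TFM 4 h arrays below the other 11. HOM3, the aspartate kinase before it, stood at 0.31 ± 0.14 at 2 h and -0.10 ± 0.12 at 4 h, neither passing, while its 2 h change with the covariate was 0.47 (adjusted p = 0.0465). In serine synthesis SER3 read 11.25 and 11.14 at time zero, 11.30, 11.14, 11.06, 11.34 and 11.22 in isopropanol, and 11.04 and 11.19, then 11.28 and 11.42, then 12.05 and 12.21 after 1, 2 and 4 h of TFM. SER3, a phosphoglycerate dehydrogenase that starts the pathway, rose by 0.85 ± 0.097 (adjusted p = 4.46e-05) at 4 h, both TFM arrays above all others. For SER1 the arrays gave 12.00 and 12.09 at time zero and 12.01, 12.04, 12.16, 12.19 and 12.16 in isopropanol, against 11.92 and 11.93 at 1 h of TFM, 11.76 and 11.77 at 2 h, then 12.02 and 12.07 at 4 h. SER1, the phosphoserine aminotransferase of the next step, was instead lower at 2 h (-0.39 ± 0.074, adjusted p = 0.0101), with both TFM 2 h arrays below the other 11, and at 4 h its change of -0.13 ± 0.060 did not pass.

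**Figure D3:**
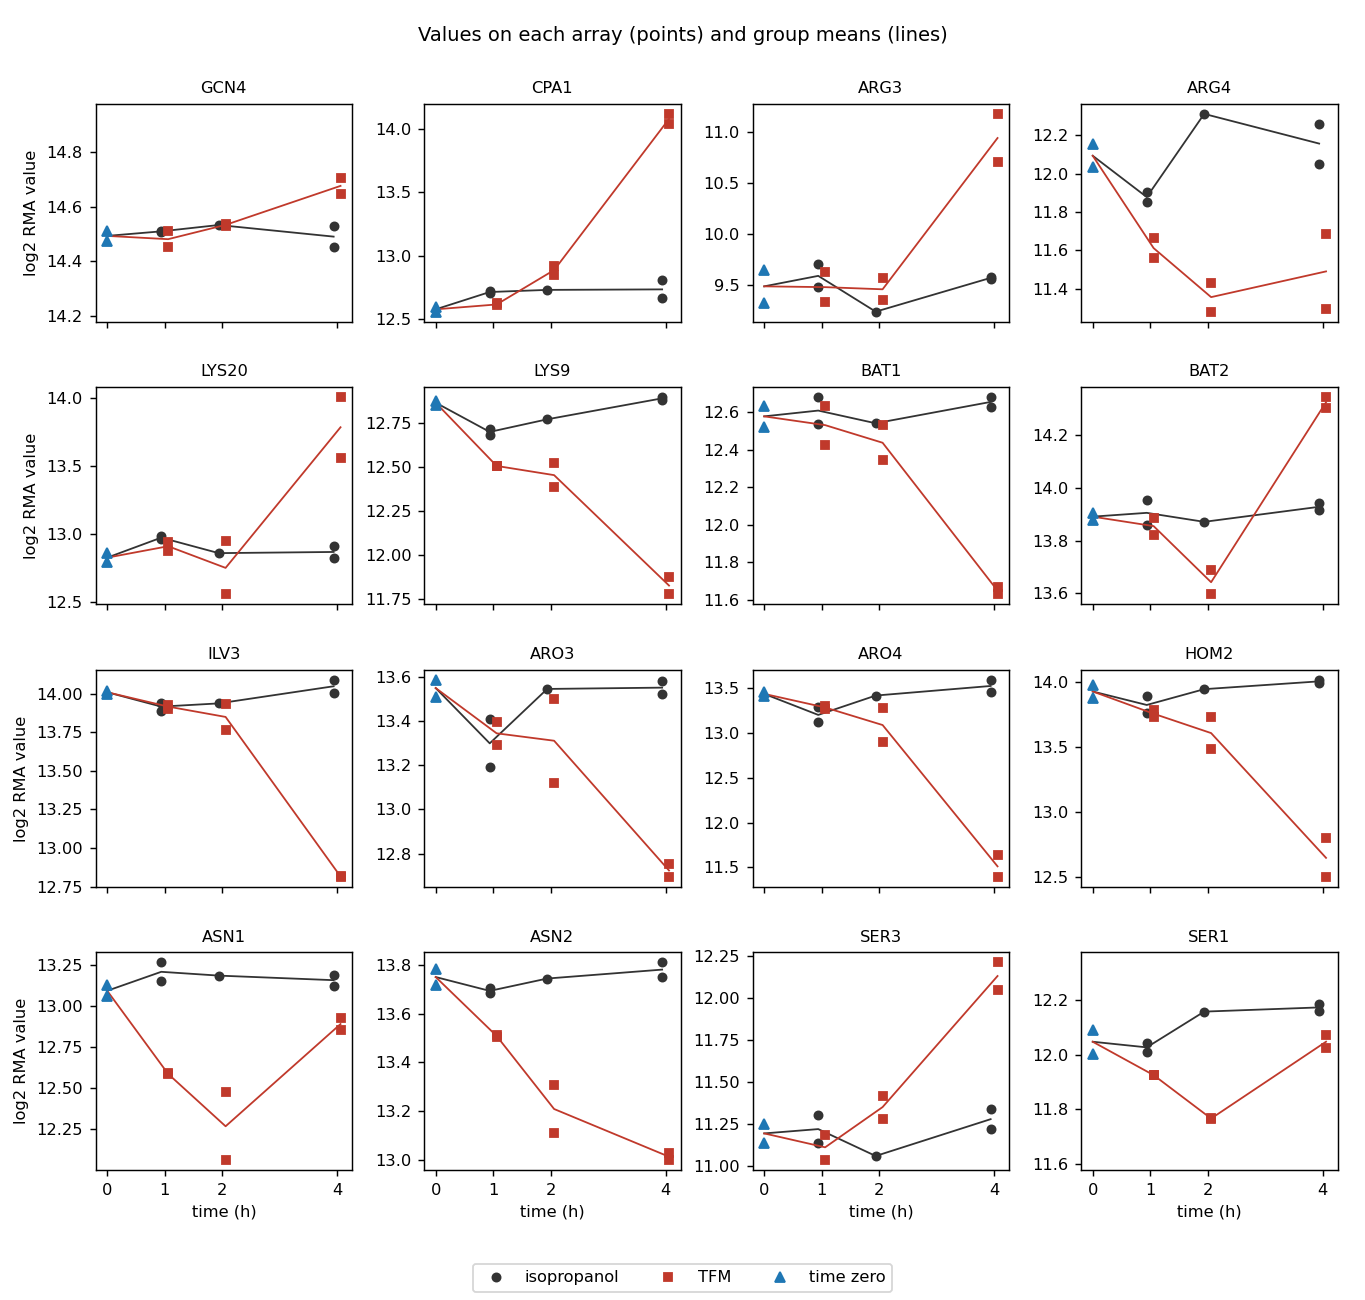
Log2 RMA value (vertical axis, scaled separately in each panel) of 16 genes against time in h, with black circles for isopropanol, red squares for TFM and blue triangles for time zero. Each point is 1 array and lines join group means: ARG3, CPA1, LYS20, BAT2 and SER3 end above isopropanol, BAT1, ILV3, ARO3, ARO4, HOM2, LYS9 and ASN2 below it, and ASN1 and SER1 are lowest at 2 h.

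The 5 paralog pairs thus differed in how far their members moved apart at 4 h. BAT1 and BAT2 were called in opposite directions (-1.01 and 0.40), ARO3 and ARO4 both fell (-0.83 and -2.01), and of LEU4 and LEU9 (-0.023 and -0.67), LYS20 and LYS21 (0.92 and 0.22) and ASN1 and ASN2 (-0.27 and -0.77) 1 of each pair was called. The difference within a pair was not tested. None of the members' probe sets carries a suffix that marks probes shared between genes, and cross-hybridization between paralogs was not tested.

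The same model tested whether the response to TFM at 4 h differed from the response at 1 h, as a difference of differences. In 24 of 41 members it passed, 15 lower and 9 higher at the later time, 36.6 and 22.0% of the members beside 26.4 and 22.9% of all genes (49.3% either way). The differences ran from -2.10 ± 0.18 for ARO4 and -1.29 ± 0.16 for HOM2 to 1.44 ± 0.098 for CPA1 and 1.48 ± 0.25 for ARG3. ASN1 was among the 17 that did not pass, at 0.36 ± 0.16 (adjusted p = 0.0992), as were GCN4 at 0.22 ± 0.087 (adjusted p = 0.0642) and all 4 histidine genes. With the covariate 12 members passed, 5 higher and 7 lower, and the share of all genes that passed there is not given here.

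The counts moved with the integrity covariate. Once the 3 prime minus 5 prime difference entered the model, 19 members passed at 4 h, 7 higher and 12 lower, beside 44.9% of all genes, and 5 passed at 2 h, 1 higher and 4 lower, beside 9.41% of all genes. Of the 29 members called at 4 h, 17 were called in each other setting that held them, 24 settings at most. The 6 higher were ARG3, CPA1, LYS1, LYS20, BAT2 and SER3, and the 11 lower were LYS9, LYS12, LEU9, ILV2, ILV3, BAT1, ARO2, ARO3, ARO4, ASN2 and HOM2. ARG3 was absent from the setting without the dimmest 25% of genes. Some settings, such as leaving out an array of another time, could not move a 4 h value. At 2 h ARG4, ASN1, ASN2 and SER1 were called in each of 23 other settings, and they were the 4 left without TFM 2 h replicate 2, the array of that time with the high 3 prime minus 5 prime difference. The 2 h calls of LYS9, TRP2, TRP4, TRP5 and HIS5 were lost there, at -0.25, -0.36, -0.49, -0.26 and -0.36. Without TFM 2 h replicate 1 more members passed than in the main model. The shares of all genes without either array are not given here. The covariate was higher with TFM at 4 h, so the model cannot fully separate it from TFM there. With it the 4 h standard error grew for some members, as for ARG1 (0.098 to 0.17) and HIS7 (0.13 to 0.22). It fell for others, as for LYS20 (0.15 to 0.13). A call lost with the covariate is thus not in itself a smaller change. The part of RNA integrity in the changes was not tested beyond this covariate.

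**Figure D4:**
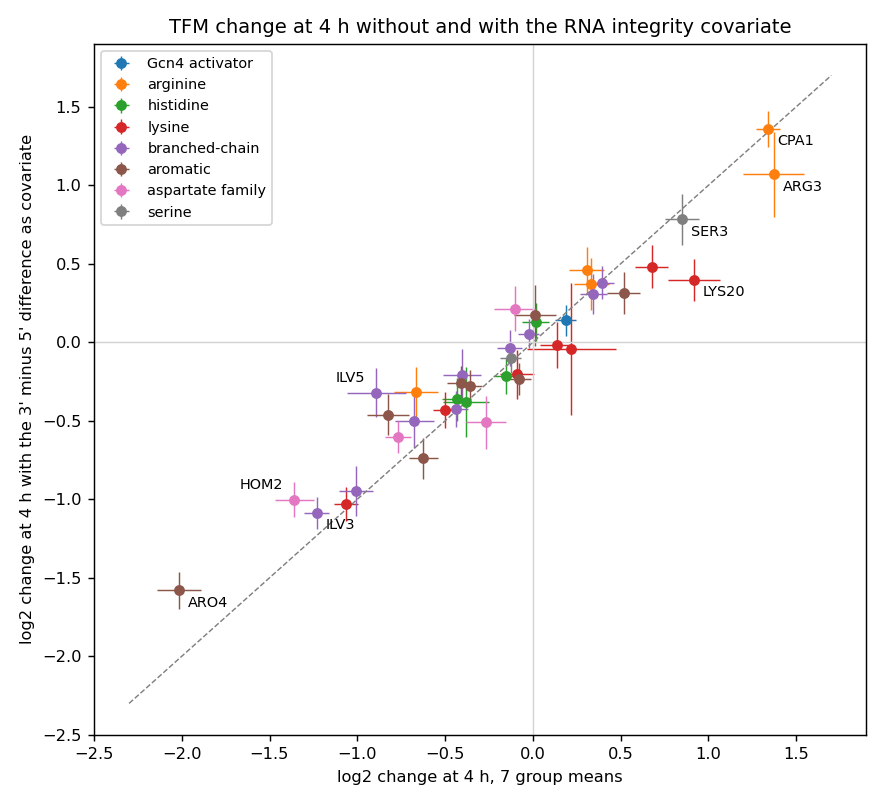
Log2 change at 4 h, TFM minus isopropanol, of each of the 41 genes from the model with 7 group means (horizontal axis) and with the 3 prime minus 5 prime difference added as a covariate (vertical axis), with standard errors as bars and a dashed line of equality. CPA1 (1.34 and 1.36) lies on the line, while ILV5 (-0.89 and -0.32) and LYS20 (0.92 and 0.40) lie nearer to 0 with the covariate.

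Of 22 measured genes outside the member list, from these and the glutamate and proline pathways, 11 were lower and 4 higher at 4 h, with a median of -0.27, and 4 were lower and 1 higher at 2 h. The shares of all genes were 34.0% lower and 30.9% higher at 4 h, and 5.84% lower and 8.30% higher at 2 h. TRP1 had no named probe set and is not analysed here. In the arginine pathway ARG2, the first enzyme (0.46 ± 0.074), and ORT1, the mitochondrial ornithine carrier (0.24 ± 0.095, adjusted p = 0.0495), rose at 4 h. TYR1 of tyrosine synthesis (-0.84 ± 0.094), HIS2, the histidinol phosphatase (-0.60 ± 0.11) and the threonine pathway genes HOM6 (-0.33 ± 0.056) and THR1 (-0.41 ± 0.10) were lower, as were PRO2 (-0.91 ± 0.062) and PRO3 (-0.71 ± 0.091) of proline synthesis. LYS5, which encodes the enzyme that activates Lys2, rose by 0.72 ± 0.10, and GDH3, a glutamate dehydrogenase, by 1.35 ± 0.083. Of 15 regulator genes 6 were higher and 4 lower at 4 h, again beside 30.9 and 34.0% of all genes. BAS1, an activator of histidine and purine genes (2.13 ± 0.14), and LYS14, the activator of lysine genes (0.90 ± 0.098), rose, while GCN20 (-0.80 ± 0.083), which acts on Gcn2, and GCN3 (-1.06 ± 0.10), a subunit of the eIF2B exchange factor, fell.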

How the data were processed

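Gene expression was measured on 13 arrays in 7 groups, taken from the sample titles. The deposited values are log2 expression values made by the authors with RMA, as named in the submitters' processing notes. The sources used here do not name its version. RMA puts all arrays on a common distribution, so changes are relative to the whole array. Of 5900 probe sets, 5498 were named through GEO's platform annotation, joined by gene ID to RefSeq R64, which updated 12 symbols, and 402, of which 184 are controls, were not. Where a gene had several probe sets (47 genes), the brightest on average was kept, which left 5449 genes.

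A limma model (limma 3.58.1, R 4.3.3) with 7 group means was fitted to all genes and arrays, with 6 residual and 3.52 prior degrees of freedom. P-values are two-sided and adjusted over all genes by Benjamini-Hochberg, threshold 0.05, and intervals are 95%. The isopropanol 2 h group, with 1 array, took its spread from the others. The number of arrays limits precision: the median standard error was 0.0954 at 1 and 4 h and 0.117 at 2 h. In 1 simulated run with 5449 genes, few of them changed and only at TFM 4 h, 71.6, 100 and 100% of changes of 0.5, 1 and 2 were recovered. There 194 genes were called, of which 13 (6.70%) were false, whereas 64.9% of all genes were called in the data. The noise was independent between arrays and held no difference in RNA integrity. These rates thus do not carry over to the data.

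The members and lists were chosen with earlier results of these data known. Values on every array are given for GCN4, the 2 members of each pathway with the smallest adjusted p each way at 4 h, and 5 paralog pairs; other genes of each list are named by the same rule. Same-numbered arrays deviated together in the 3 pairs of groups without TFM (correlations 0.266 to 0.599). They were taken as paired on the data alone, with no label naming the cause, and only in the setting that blocks the arrays without TFM. The main model pairs no arrays. The correlation was -0.226 and -0.0928 between TFM and isopropanol at 1 and 4 h, which were not paired. Alternatives were cyclic loess, median centring, quantile normalization, a filter on the dimmest 25% of genes, a trended robust variance, averaged probe sets, a replicate block, other reference arrays, RNA integrity as a covariate and leaving out each array. Python 3.11.15 with matplotlib 3.10.9 drew the figures.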

Additional observations from a re-analysis of the deposited data

Results flagged for a closer look

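The TFM effect at 4 h differed from that at 1 h in 24 members (58.5%), beside 49.3% of all genes, by the limma test of the difference (adjusted p at most 0.05). It was lower at 4 h, in log2 units, for ARO4 (-2.10), HOM2 (-1.29), ILV3 (-1.23), ILV5 (-1.16), BAT1 (-0.93), ARO3 (-0.87), LYS9 (-0.87) and LEU9 (-0.77). Smaller differences the same way were those of ASN2 (-0.58), ILV1 (-0.42), ARO2 (-0.42), ILV2 (-0.35), LYS12 (-0.35), TRP2 (-0.31) and TRP5 (-0.30). It was higher at 4 h for ARG3 (1.48), CPA1 (1.44), LYS20 (0.98), SER3 (0.96), LYS1 (0.74), TRP3 (0.63), ARG1 (0.45), BAT2 (0.45) and LEU1 (0.42). The call was kept in each other setting that held the gene, 24 at most, for 11 of them. These were ARG3, CPA1, LYS1, BAT2 and SER3 on the higher side and LYS9, ILV3, BAT1, ARO4, ASN2 and HOM2 on the lower side. ARG3 was absent from the setting without the dimmest 25% of genes. RNA integrity, as the 3 prime minus 5 prime difference, was 1.63 and 1.40 for TFM and 1.15 and 1.13 for isopropanol at 4 h. At 1 h it was 1.32 and 1.39 for TFM and 1.42 and 1.34 for isopropanol. With it as a covariate 12 calls were lost, those of ARG1, LYS12, LYS20, LEU1, LEU9, ILV1, ILV2, ILV5, TRP2, TRP3, TRP5 and ARO3. Among these, ARG1 (0.49) and ILV2 (-0.34) kept nearly the same value, while ILV5 (-0.55) and LYS20 (0.42) moved nearer to 0. A lost call is thus not in itself a smaller change. ILV1 also lost its call with the replicate block, at -0.42 (adjusted p = 0.06). With time zero or all 5 isopropanol arrays as reference, the reference cancels out of this difference. What is left is TFM at 4 h minus TFM at 1 h, the same value in both settings. For ILV1 that value was -0.11, not called in limma (adjusted p = 0.423 and 0.524). TRP5 lost its call with cyclic loess, at -0.23 (adjusted p = 0.0603). Its TFM 4 h minus TFM 1 h value, -0.14, was not called in those settings either (adjusted p = 0.0858 and 0.123). In the setting with the 5 isopropanol arrays as 1 group, the same TFM difference lost its call for ILV2, at -0.19 (adjusted p = 0.0716). It did so too for LYS12, at -0.20 (adjusted p = 0.0549). The calls of ARG1, LYS12, ILV1, ILV2, TRP2, TRP5 and ARO2 were each lost on leaving out at least 1 of the arrays.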

How the results depend on the processing

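At 4 h the count of 29 members stayed between 26 and 30 in every setting other than the 3 prime minus 5 prime covariate, which gave 19, and the 4 h minus 1 h count of 24 stayed between 19 and 27 other than 12 with that covariate. At 2 h the count of 9 was 16 against time zero, 18 against all 5 isopropanol arrays and 5 with the covariate, and 4 to 14 with 1 array left out, the ends being without TFM 2 h replicate 2 and replicate 1. At 1 h the count of 1 was 3 against all 5 isopropanol arrays, 0 with the replicate block, and 0 to 1 with 1 array left out. The isopropanol counts were 0 in every setting. The counts in this paragraph are of members alone. Beyond the main settings, shares of all genes are given, further above, only with the covariate at 2 and 4 h. From the other counts alone, a move of the members cannot be told apart from one of all genes. With the replicate block, the counts were 6 at 2 h, 29 at 4 h and 23 for the difference, and LYS9, TRP4 and TRP5 lost their 2 h calls; with the block for arrays without TFM only, chosen after seeing the data, they were 1, 9, 27 and 24 at 1, 2 and 4 h and for the difference, and it changed no other call than those of GCN4 and HIS7 at 4 h. No called change of a member turned its sign in any setting. The 3887 values tried include changes that were not called, and 102 values that were not called turned their sign. The 17 calls at 4 h and 4 at 2 h kept in all settings that held them rest on 2 arrays a group, and on 1 isopropanol array at 2 h. Some of these settings could not move a member's value. Averaged probe sets left every member as it was, and leaving out an array of a group outside the comparison changed only the spread.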

Other observations

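Genes of amino acid breakdown were measured beside those of synthesis. Of 8 such genes 5 were higher and 2 lower after 4 h of TFM, with a median of 0.42, and 1 was higher at 2 h. Of all genes 30.9% were higher and 34.0% lower at 4 h, and 8.30% were higher at 2 h. CHA1, the serine and threonine deaminase, read 11.13 and 10.91 in isopropanol and 12.89 and 13.01 in TFM at 4 h, a rise of 1.93 ± 0.11 (adjusted p = 1.17e-06). PUT1, the mitochondrial proline oxidase, read 13.74 and 13.77 against 14.73 and 14.76, a rise of 0.99 ± 0.070 (adjusted p = 2.81e-06). PUT2, which acts after it, was lower (-0.19 ± 0.062, adjusted p = 0.0191), as was ARO10, a decarboxylase of aromatic amino acid breakdown (-0.28 ± 0.074, adjusted p = 0.00801).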
